A study of Bos taurus with 23 samples.

Results

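RARRES1 (retinoic acid receptor responder 1, ENSBTAG00000014713) is 1 of the 50 endometrial genes that the study lists as biomarkers of uterine receptivity in cattle, and it was followed here across 23 Holstein cows. It was found by its identifier among the 24616 genes counted in each library, and all 50 genes of the list passed the filter on low counts. Each library came from 1 endometrial biopsy of 1 lactating cow, taken in dioestrus on day 6 to 8 of the cycle. In the following cycle each cow received 1 in-vitro produced embryo, and slaughter on day 26 to 47 showed 12 cows to be pregnant and 11 not. The cows had parity number 1 (12 cows), 2 (5 cows) or 3 (6 cows), and the transfer followed the last calving by 128 to 274 days (median 174). Breed, tissue and embryo type were shared by both groups, and the labels give neither a treatment of the cows nor their age.

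Retinoic acid, made in cells from vitamin A, binds nuclear receptors (RAR, paired with RXR) that sit on the DNA of target genes and change their transcription. RARRES1 was first described as a gene induced by a synthetic retinoid in skin, and it codes for a membrane protein with a region related to latexin, an inhibitor of carboxypeptidases. In the uterus of ruminants, the endometrium makes and secretes retinol-binding protein, and vitamin A is needed for early pregnancy. The files name genes by Ensembl identifier alone. The retinoid receptors, enzymes and other targets, and the markers of endometrial cell types, could therefore not be matched and were not analysed here, and the labelled tissue could not be checked against marker genes.

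RARRES1 was chosen by the study on its expression values, which were higher in pregnant than in non-pregnant animals, in data that included part of these cows. Its levels by pregnancy status are therefore a description and carry no test. Parity and days from calving did not enter that choice and were tested. The relation to other genes was tested with pregnancy status in the model. The paper preferred this set of 50 genes to larger ones by how well their expression clustered the samples. Relations among the listed genes may thus have entered the choice, and the share of them called is not independent support. The libraries held 6920879 to 27357249 counts in genes. Non-pregnant cows 4 and 6 and pregnant cows 22 and 23 lay apart from the other 19 libraries on the first principal component, at 49.7 to 97.8 against at most 9.75. Reads are called outside genes here where HTSeq, the counting tool, assigned them to no annotated feature. Their share is taken of the reads in genes, outside genes or ambiguous, and not of all reads sequenced. In pregnant cows 20 and 21 this share was 75.5% and 76.7%, while the other 21 libraries had 59.6% or less. The spread of RARRES1, its differences between groups and its relation to other genes are given with and without these 6 libraries. The cows are numbered by their sample titles.

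RARRES1 was well expressed in every biopsy and differed widely between cows. Its mean was 265 ± 138 CPM (CPM stands for counts scaled to a common library size after TMM normalization; SD, n = 23), with a median of 264 CPM. The highest level, 519 CPM in pregnant cow 18, was 13.4 times the lowest, 38.7 CPM in pregnant cow 23. Counting error was small against this range, since the gene had 417 to 12906 counts per library, which gives a counting error of 0.88 to 4.9% of the level. When the 23 cows were put in order of RARRES1, 16 of the 22 neighbouring pairs differed beyond counting error and 6 did not (exact binomial test on the counts of each pair). This test compares single libraries, and with 1 biopsy per cow the spread between biopsies of a cow is unknown. In a biopsy of mixed tissue, fewer cells that express RARRES1 and less RARRES1 per cell cannot be told apart.

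The spread of RARRES1 stood high among the measured genes. Around the means of pregnant and non-pregnant cows, its SD was 0.95 on the log2 CPM scale. The median of all 14852 genes was 0.45, and RARRES1 lay at the percentile 81.6 of these SDs. Among the 50 genes of the study it had the fifth largest SD, against a median of 0.35. Genes with few counts have a larger SD from counting alone. In the 1868 genes with a mean of at least 100 CPM, where counting adds little, the median SD was 0.33 and RARRES1 ranked at 221. The 6 libraries that stand apart held much of this spread. Without them the SD of RARRES1 was 0.48 against a median of 0.32 over all genes, at the percentile 71.6, and the highest level was 5.37 times the lowest. It then ranked at 6 among the 50 genes, whose median was 0.25, and at 222 among the 1836 genes with a mean of at least 100 CPM.

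The highest levels belonged mostly to pregnant cows, and so did the 2 lowest. In pregnant cows RARRES1 ranged from 38.7 to 519 CPM with a median of 356 CPM. In non-pregnant cows it ranged from 96.7 to 409 CPM with a median of 180.2 CPM. The groups overlapped. Of the 12 pregnant cows, 5 lay above every non-pregnant cow (cows 15, 17, 10, 7 and 18, at 416 to 519 CPM), 5 lay within the non-pregnant range, and 2 lay below it (cows 23 and 21, at 38.7 and 76.2 CPM). Of the 6 highest cows 5 were pregnant, the exception being non-pregnant cow 4 at 409 CPM in the sixth place. The non-pregnant median was passed by 9 of the 12 pregnant cows, and 10 of the 11 non-pregnant cows were under the pregnant median.

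The mean of the pregnant cows was 308 ± 162 CPM (SD, n = 12). That of the non-pregnant cows was 219 ± 91.3 CPM (SD, n = 11), a difference smaller than either SD. The log2 fold change from edgeR was 0.50 (standard error 0.33), pregnant minus non-pregnant. After adjustment, edgeR's quasi-likelihood test called 0% of 14852 genes in this comparison, with 1556 (10.5%) at an unadjusted p under 0.05. With the Wald test of DESeq2, 10 genes were called (0.0695% of those it tested), of which 0.0209% were higher and 0.0487% lower in pregnant cows. No p is given for RARRES1 here because this contrast chose it.

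The size of this difference depended on which libraries were used. In the 4 libraries apart on the first component RARRES1 was at 38.7 and 130.2 CPM in pregnant cows 23 and 22 and at 271 and 409 CPM in non-pregnant cows 6 and 4. In pregnant cows 20 and 21, with most reads outside genes, it was at 267 and 76.2 CPM. The pregnant cows among these 6 therefore sat low in their group, and the non-pregnant ones high in theirs. Without the 4 libraries apart the log2 fold change was 0.87 (standard error 0.27), and without pregnant cows 20 and 21 it was 0.61 (standard error 0.33). Without all 6 it was 1.04 (standard error 0.21). The 8 pregnant cows then had a mean of 398 ± 96.8 CPM (SD) and a range of 201 to 519 CPM, while the 9 non-pregnant cows had 192 ± 68.9 CPM (SD) and 96.7 to 315 CPM, still with an overlap. The 6 libraries stand apart by measures over all genes and not by RARRES1, but their RARRES1 values had been seen, so the larger difference without them is a description. With each cow left out in turn the log2 fold change ranged from 0.39 to 0.61.

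**Figure D1:**
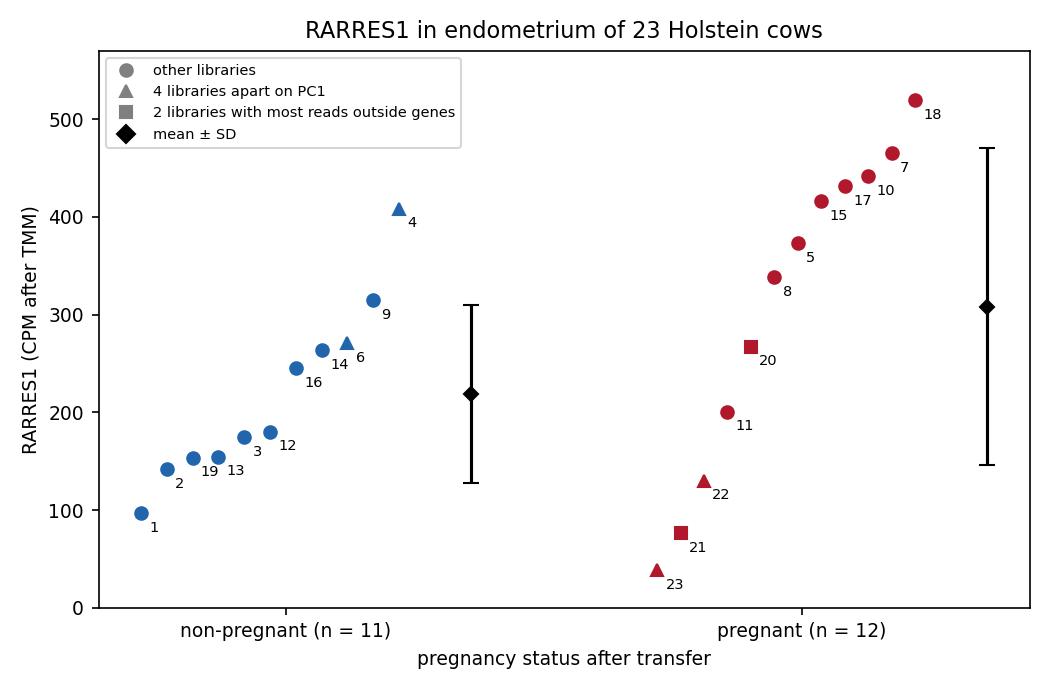
RARRES1 level (y axis, CPM after TMM) in each of 11 non-pregnant and 12 pregnant cows (x axis), each point labelled with the number of the cow and ordered by level within its group, with diamonds and bars for the mean ± SD. Triangles mark the 4 libraries apart on the first principal component and squares the 2 with most reads outside genes; 5 pregnant cows lie above the highest non-pregnant cow at 409 CPM, and pregnant cows 23 and 21 lie below all others.

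RARRES1 showed no detectable relation to parity. The 7 pregnant cows of parity 1 had 38.7, 130.2, 267, 339, 373, 431 and 465 CPM and the 5 non-pregnant ones 142, 155, 246, 315 and 409 CPM, with a median of 291 CPM over these 12. In cows of parity 2 it was 96.7, 154 and 271 CPM in the 3 non-pregnant cows and 416 and 442 CPM in the 2 pregnant cows. In cows of parity 3 it was 175, 180.2 and 264 CPM in the non-pregnant and 76.2, 201 and 519 CPM in the pregnant cows. The ranges of the parities overlapped almost fully, while at parity 2 both pregnant cows lay above the 3 non-pregnant ones. With pregnancy status in the model, the fold change of cows of parity 2 or 3 over those of parity 1 was -0.11 on the log2 scale (standard error 0.34, adjusted p = 0.99, edgeR's quasi-likelihood test). An exact permutation test of parity class within pregnancy status, two-sided over 365904 arrangements, gave p = 0.885 for a difference of -0.06 in mean log2 CPM (adjusted p = 0.96 over 5 cow and library measures). Without the 4 libraries apart this difference was -0.37 (exact p = 0.276), without pregnant cows 20 and 21 it was 0.14 (exact p = 0.765), and without all 6 it was -0.20 (exact p = 0.402). For parity, edgeR called 0% of the 14852 genes (520, or 3.5%, at an unadjusted p under 0.05) and DESeq2 called 0. With a standard error of 0.34, the missed threshold does not show that RARRES1 was alike in the parities.

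Ordered by status and parity, mean RARRES1 was 331 ± 185 CPM in pregnant cows of parity 2 or 3 (SD, n = 5), 292 ± 158 CPM in pregnant cows of parity 1 (SD, n = 7), 253 ± 112 CPM in non-pregnant cows of parity 1 (SD, n = 5) and 190.0 ± 66.9 CPM in non-pregnant cows of parity 2 or 3 (SD, n = 6). Each neighbouring pair in this order differed by less than the SD of either of its groups. The difference between pregnant and non-pregnant cows was larger at parity 2 or 3 than at parity 1 by 0.59 on the log2 scale (standard error 0.69), an interaction that did not pass edgeR's quasi-likelihood test (adjusted p = 0.988). Neither edgeR nor DESeq2 called any gene for this interaction, and edgeR gave 443 genes (2.98%) an unadjusted p under 0.05. The interaction was 0.13 without the 4 libraries apart, 0.83 without pregnant cows 20 and 21 and 0.27 without all 6.

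RARRES1 showed no detectable relation to the days from calving to transfer either. The 5 cows with the highest levels spanned the whole range of days, at 145 (cow 18, 519 CPM), 261 (cow 7, 465 CPM), 178 (cow 10, 442 CPM), 128 (cow 17, 431 CPM) and 274 days (cow 15, 416 CPM). The lowest cow, pregnant cow 23, was at 173 days, next to the median. The log2 slope was 0.29 per 100 days with pregnancy status in the model (standard error 0.36, adjusted p = 1.00, edgeR's quasi-likelihood test). Across the 23 cows, Pearson's r was 0.20 (permutation p = 0.361, adjusted p = 0.601 over 5 measures) and Spearman's rho was 0.15 (permutation p = 0.482, adjusted p = 0.803). Without the 2 cows farthest from the median of days, pregnant cow 15 and non-pregnant cow 14, r was 0.11. Within the pregnant cows r was 0.22 (permutation p = 0.496) and within the non-pregnant cows 0.17 (permutation p = 0.604). Without all 6 libraries named above r was 0.10 (permutation p = 0.692), and the slope of the edgeR fit turned to -0.02 (standard error 0.21). For days, edgeR called 0% of 14852 genes (339, or 2.28%, at an unadjusted p under 0.05) and DESeq2 called 0.

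**Figure D2:**
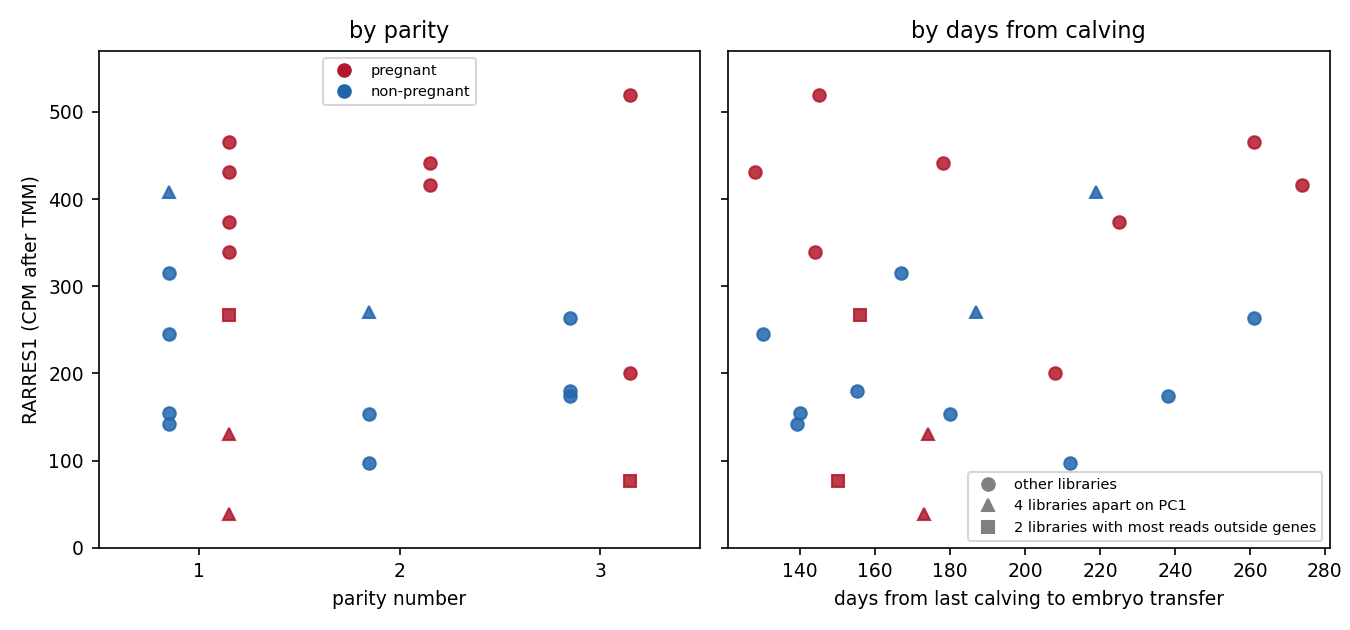
RARRES1 level (y axis, CPM after TMM) by parity number (left) and by days from last calving to embryo transfer (right) in 23 cows, coloured by pregnancy status, with triangles for the 4 libraries apart and squares for the 2 with most reads outside genes. Points of the parities overlap, and the 5 highest cows lie between 128 and 274 days.

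Of the library measures, the log2 of the counts in genes had Pearson's r of 0.44 with RARRES1 (n = 23, permutation p = 0.0354, adjusted p = 0.177 over 5 measures), and Spearman's rho was 0.24 (permutation p = 0.266). Without the 2 libraries farthest from the median, pregnant cows 20 and 21, r was 0.40. The share of reads outside genes had r of -0.30 in the 21 libraries other than these 2 (permutation p = 0.189, adjusted p = 0.473), with rho of -0.09 (permutation p = 0.7). This r was -0.10 without the 2 farthest of the 21, non-pregnant cow 1 and pregnant cow 22. The first principal component had r of -0.01 (permutation p = 0.96) and rho of 0.26 (permutation p = 0.285) within the 19 libraries that lay together, and r was 0.35 without the 2 farthest of these, pregnant cows 5 and 21. None of these relations passed after adjustment.

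Across the 23 cows, RARRES1 rose and fell together with several of the other 49 genes of the study's list. Correlations were taken on log2 CPM with the mean of each status group removed, so that the contrast on which the list was chosen does not enter them. They are descriptions over 23 cows. All genes of a library share its depth, tissue makeup and normalization. Depth differed between the libraries, and tissue makeup was not measured. The 6 genes most like RARRES1 were TMEM45A (r = 0.77), PPIC (0.69), PPP1R42 (0.69), CLECL1 (0.66), GLB1L (0.66) and ROR2 (0.65), and EBF4 followed (0.65). All are genes the study gives as higher in pregnant animals. The 5 most opposed were STAG2 (-0.59), CTBP2 (-0.56), WDR20 (-0.53), RNF19A (-0.48) and PIK3C3 (-0.48), all given as lower. Among non-pregnant cows alone, several of these relations were weak or reversed. The genes most alike then had r of 0.69, 0.72, 0.47, 0.32, 0.47, 0.08 and 0.16, in the order named. The most opposed had -0.14, 0.06, -0.46, 0.46 and -0.62. UP and DOWN are the study's directions over all its datasets. In these 23 cows 3 of the genes just named went against them. The log2 fold change, pregnant minus non-pregnant, was -0.10 for ROR2 (standard error 0.26), 0.08 for STAG2 (0.10) and 0.13 for PIK3C3 (0.09). Of the other 31 UP genes 25 had r above 0, with a median of 0.35 and a range from -0.42 to 0.77. Of the 18 DOWN genes 15 had r below 0, with a median of -0.32 and a range from -0.59 to 0.31. Over all 14851 other genes, 52.3% had r above 0 and the median was 0.02. That the UP and DOWN genes of this list vary in opposite directions was known from these cows before RARRES1 was examined, so the split by direction is not independent support.

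The ranks within this list depended on a few libraries. Without the 6 libraries that stand apart, 28 of 31 UP genes had r above 0 (median 0.29) and 16 of 18 DOWN genes had r below 0 (median -0.42). Over all 14851 other genes, 52.7% had r above 0 and 47.3% below 0 in these 17 cows, with a median of 0.02. The 6 most alike were then PPIC, EBF4, ROR2, TMEM45A, CLECL1 and YWHAQ, of which 4 were among the first 6 over all cows. PPIC held at r = 0.73 over these 17 cows, EBF4 at 0.70, ROR2 at 0.65 and TMEM45A at 0.59, while PPP1R42 was at 0.26. Of the 5 most opposed only CTBP2 remained among the 6 lowest, at -0.56. Without the 2 cows farthest from the median RARRES1 level, pregnant cows 23 and 21, r was 0.77 for PPIC, 0.61 for EBF4, 0.58 for TMEM45A and 0.06 for PPP1R42, and it turned from negative to positive for RNF19A (0.20).

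**Figure D3:**
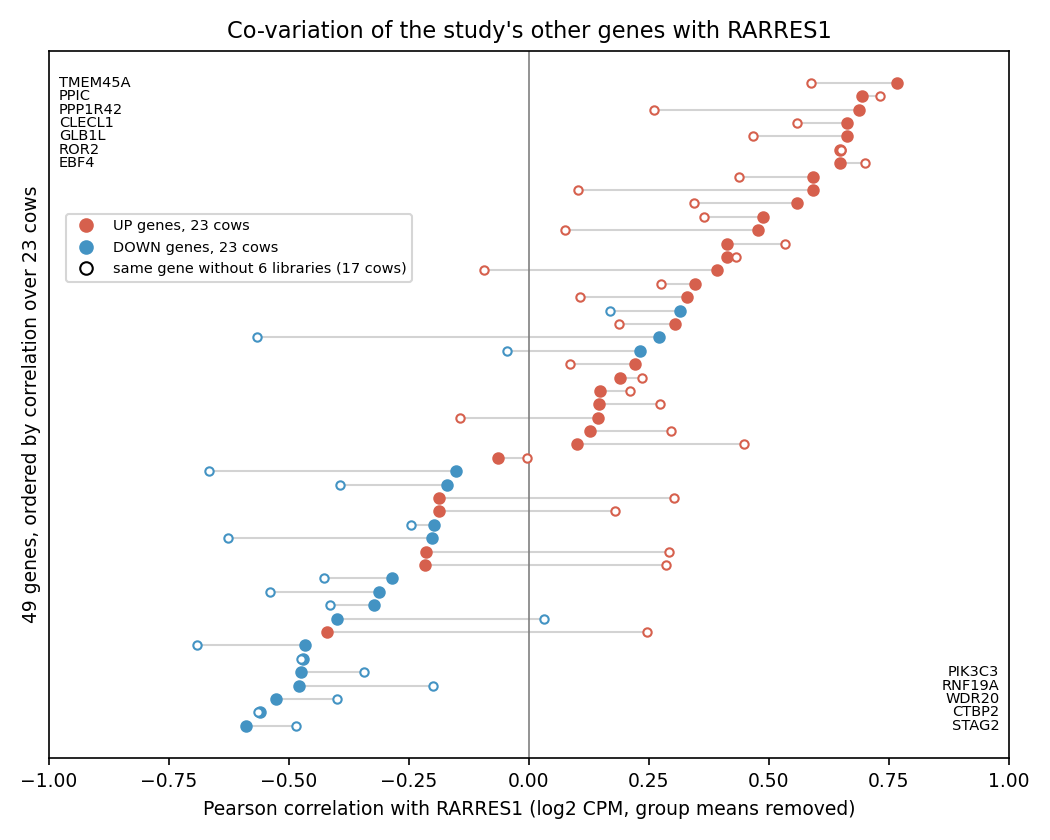
Pearson correlation with RARRES1 across cows (x axis, log2 CPM with status group means removed) for the other 49 genes of the study's list, ordered by their value over 23 cows (y axis). Filled points stand for 23 cows and open points for the 17 cows left without the 6 libraries that stand apart, red for UP and blue for DOWN genes; the 7 genes named at the upper left range from 0.65 to 0.77 and the 5 at the lower right from -0.59 to -0.48 over 23 cows, and several points shift across 0 between the sets.

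To test this co-variation, every gene was fitted on the log2 level of RARRES1 with pregnancy status in the model. A slope of 1 means that a gene doubles when RARRES1 doubles. Of the 49 genes, 4 were called by edgeR's quasi-likelihood test (8.16%), TMEM45A, PPIC, EBF4 and GLB1L, all with a positive slope, against 373 of all 14851 genes (2.51%), of which 207 (1.39%) were positive and 166 (1.12%) negative. At an unadjusted p under 0.05 there were 21 of 49 genes, against 21.2% of all genes (9.91% positive and 11.3% negative). Among the 21 were 12 UP genes with a positive slope and 2 with a negative one, and 7 DOWN genes, each with a negative slope. The median slope was 0.12 in the UP genes and -0.11 in the DOWN genes, against -0.01 over all genes.

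TMEM45A (ENSBTAG00000004459), a transmembrane protein known from keratinising skin, was at 13.4 to 73.2 CPM in pregnant cows (median 50.1) and at 19.2 to 67.8 CPM in non-pregnant cows (median 39.0). Its slope on RARRES1 was 0.46 (standard error 0.09, adjusted p = 0.0162, edgeR), which is a factor of 1.38 for each doubling of RARRES1. Its lowest level was in pregnant cow 21, the second lowest for RARRES1, and its highest in pregnant cow 17, the fourth highest. Its correlation with RARRES1 was 0.80 within pregnant and 0.69 within non-pregnant cows.

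PPIC (cyclophilin C, ENSBTAG00000001568), a prolyl isomerase that assists protein folding, was at 15.0 to 77.0 CPM in pregnant cows (median 42.8) and at 28.3 to 52.4 CPM in non-pregnant cows (median 42.7). Its slope was 0.33 (standard error 0.07, adjusted p = 0.0253, edgeR). With the status group means removed, the ranks of the cows matched more closely than the log2 levels. Spearman's rho was 0.86 against Pearson's r of 0.69. The lowest PPIC level was in pregnant cow 22, a library apart on the first component. Within the status groups r was 0.69 in pregnant and 0.72 in non-pregnant cows.

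EBF4 (ENSBTAG00000037757), a transcription factor of the early B-cell factor family, was at 1.35 to 16.9 CPM in pregnant cows (median 11.7) and at 3.70 to 14.4 CPM in non-pregnant cows (median 8.59). Its slope was 0.53 (standard error 0.13, adjusted p = 0.0388, edgeR). Its lowest levels in the 2 groups were in libraries apart on the first component, pregnant cow 22 and non-pregnant cow 6, where RARRES1 was at 130.2 and 271 CPM. Its correlation with RARRES1 was 0.75 within pregnant and 0.16 within non-pregnant cows, and the difference was not tested.

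GLB1L (ENSBTAG00000020611), a protein related to lysosomal beta-galactosidase, was at 16.1 to 49.6 CPM in pregnant cows (median 35.9) and at 23.0 to 42.5 CPM in non-pregnant cows (median 34.0). Its slope was 0.25 (standard error 0.07, adjusted p = 0.0461, edgeR). Its lowest level was again in pregnant cow 21.

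**Figure D4:**
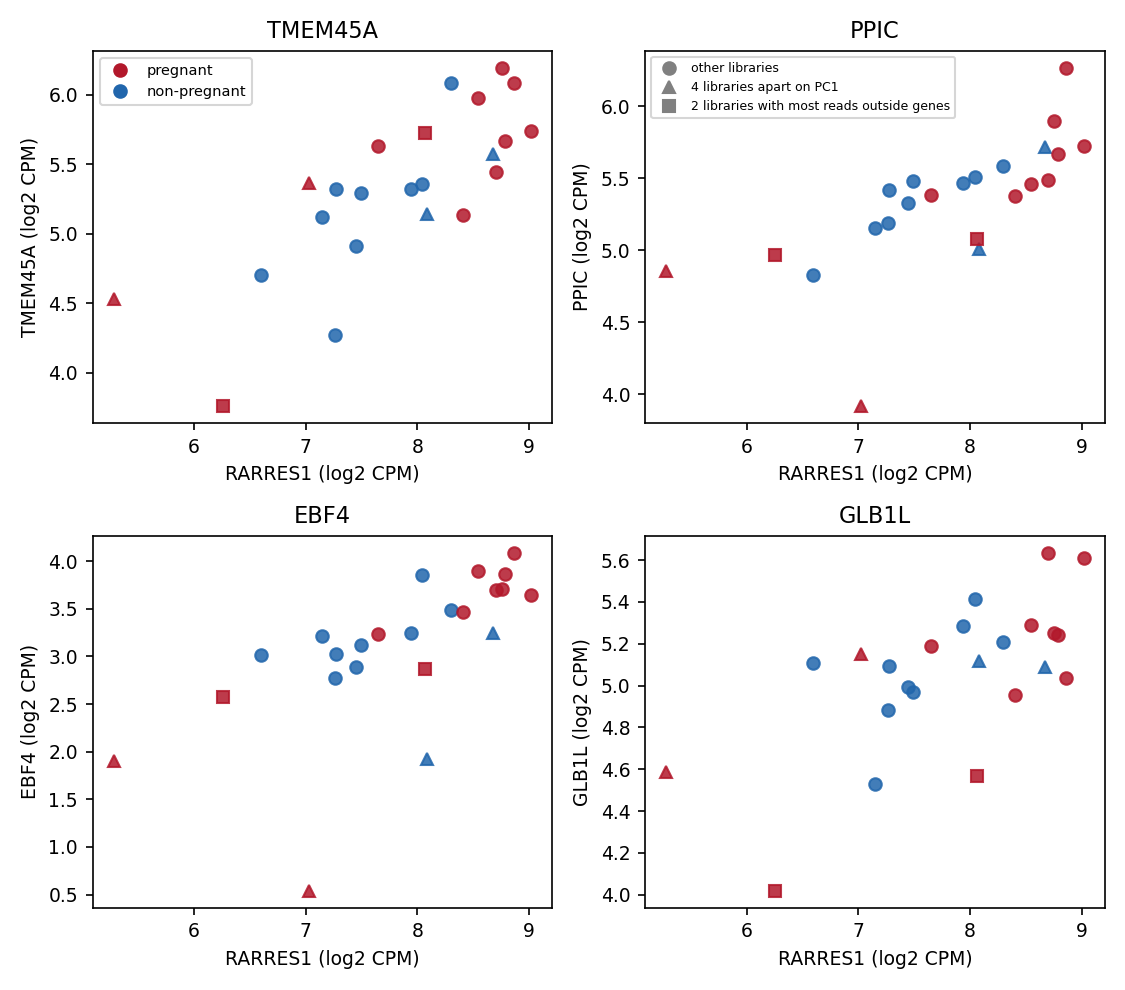
Level of TMEM45A, PPIC, EBF4 and GLB1L (y axes, log2 CPM) against that of RARRES1 (x axes, log2 CPM) in 23 cows, coloured by pregnancy status, with triangles for the 4 libraries apart and squares for the 2 with most reads outside genes. The genes rise with RARRES1, with slopes of 0.25 to 0.53, and the 2 leftmost points in each panel are pregnant cows 23 and 21.

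The other genes that were most alike or most opposed did not pass the test over all genes. ROR2, a receptor for Wnt ligands, had a slope of 0.43 (standard error 0.14, adjusted p = 0.0791, edgeR). Its correlation was 0.75 within pregnant but 0.08 within non-pregnant cows. CLECL1, a lectin-like receptor known from dendritic and B cells, had 0.40 (standard error 0.11, adjusted p = 0.0588), and PPP1R42, a regulatory subunit of protein phosphatase 1, had 0.39 (standard error 0.14, adjusted p = 0.118). The other way, CTBP2, a transcriptional co-repressor, had a slope of -0.19 (standard error 0.06, adjusted p = 0.0742) and STAG2, a subunit of the cohesin ring, had -0.15 (standard error 0.05, adjusted p = 0.0792). CTBP2 and STAG2 were both highest in pregnant cow 21, at 132 and 480.0 CPM. WDR20, a partner of deubiquitinating enzymes, had -0.11, the ubiquitin ligase RNF19A had -0.23 and PIK3C3, the lipid kinase of autophagy, had -0.10, at adjusted p-values of 0.158 to 0.189. RNF19A was highest in pregnant cow 23, at 357 CPM, the cow with the lowest RARRES1.

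Some of these relations had opposite signs in the status groups. RNF19A had r of -0.89 with RARRES1 within the 12 pregnant cows and 0.46 within the 11 non-pregnant cows. Among the non-pregnant it was highest in cow 4, at 352 CPM, where RARRES1 was highest too, and this library lay apart on the first component. MYH10, a non-muscle myosin heavy chain, and SCG5, a chaperone of the prohormone convertase of secretory granules, were the 2 genes most like RARRES1 within pregnant cows, at 0.86 and 0.85, and had -0.03 and -0.30 within non-pregnant cows. These 2 were picked after their values were seen. The difference between the status groups was not tested for any of the 3, and the pregnant group holds the lowest RARRES1 levels, in cows 23 and 21.

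The calls were lost when library measures were added to the model or all 6 libraries that stand apart were left out. With the share of reads outside genes added to the model, edgeR called none of the 49 genes and 10 of all 14851. At an unadjusted p under 0.05 there were 15 of the 49 and 2032 of all genes. Adding the log2 of the counts in genes was a setting chosen after the data were seen. There edgeR again called none of the 49 and 10 of all genes, with 12 and 2022 at an unadjusted p under 0.05. Without the 6 libraries that stand apart it called none of the 49 and 2 of 14828 genes. At an unadjusted p under 0.05 there were 12 of the 49 and 1768 of all genes. The slopes stayed positive. In these 3 fits that of TMEM45A was 0.44, 0.41 and 0.53, that of PPIC 0.28, 0.31 and 0.42, and that of EBF4 0.48, 0.52 and 0.45. That of GLB1L was 0.23, 0.18 and 0.23. Without only the 4 libraries apart, 10 of 49 genes were called, against 11.3% of all genes, with TMEM45A, PPIC, EBF4 and GLB1L among them. Without only pregnant cows 20 and 21, 2 were called, TMEM45A and ROR2, against 1.07%. DESeq2's Wald test called 12 of 49 (24.5%), these 4 included, against 8.18% of all genes, of which 4.18% were positive and 4% negative.

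Single cows also decided the number called. It was 14 (28.6%) without non-pregnant cow 4, 9 (18.4%) without non-pregnant cow 6 and 7 (14.3%) without pregnant cow 23. Of all genes, 7.17%, 7.63% and 4.9% were called in these fits. The number was 2 of 49 (4.08%) without non-pregnant cow 9 or 16 or without pregnant cow 5, 7, 10, 15, 17, 18 or 21. In those fits 0.773% to 2.25% of all genes were called. TMEM45A remained called whichever cow was left out (23 of 23, highest adjusted p = 0.0428, edgeR). PPIC remained in 22 of 23 fits and was lost without pregnant cow 21 (adjusted p = 0.0509, edgeR). EBF4 remained in 13 and GLB1L in 7 of 23 fits. Without the 2 cows lowest in RARRES1, pregnant cows 23 and 21 together, a set chosen after the data were seen, 3 of the 49 genes were called, against 0.593% of all genes. These were PPIC with a positive slope and, with negative ones, HACL1, a peroxisomal lyase, and NEIL2, a DNA repair glycosylase. TMEM45A (slope 0.39, adjusted p = 0.143, edgeR), EBF4 (0.64, adjusted p = 0.215) and GLB1L (0.17, adjusted p = 0.416) were not called without these 2 cows.

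**Figure D5:**
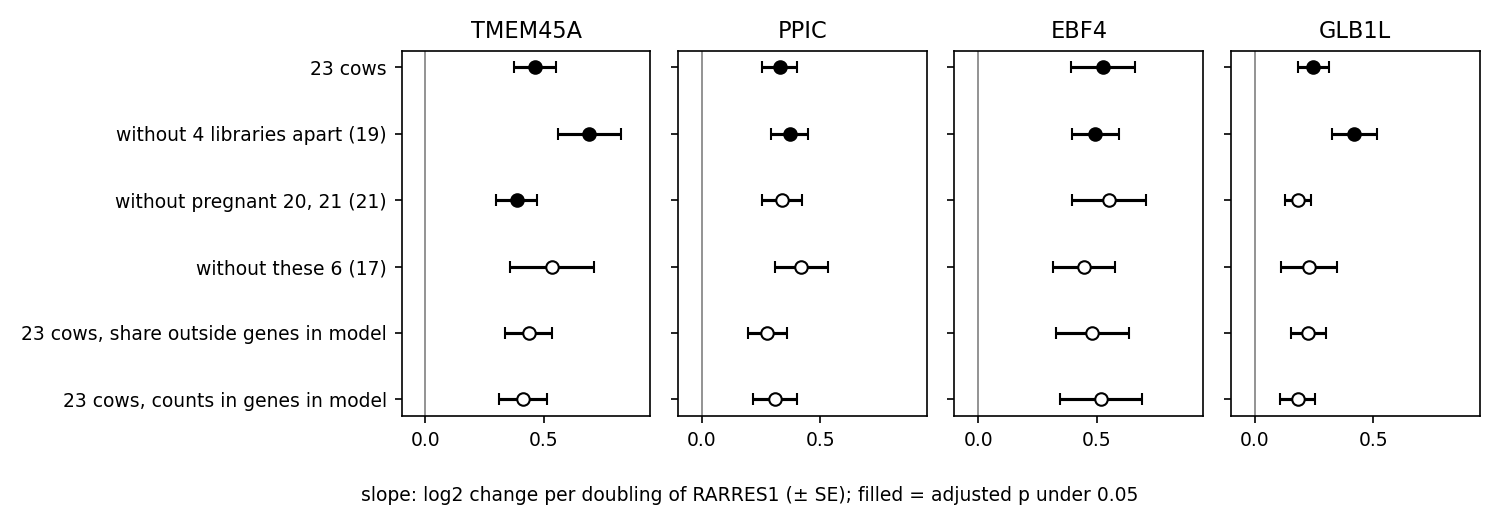
Slope on RARRES1 (x axes, log2 change per doubling of RARRES1, bars for the standard error) of TMEM45A, PPIC, EBF4 and GLB1L under 6 settings (y axis, number of cows in parentheses), filled where the adjusted p was under 0.05. The slopes stay above 0 in all 24 fits shown, from 0.18 to 0.69, and the points are open in the fits without the 6 libraries and with library measures in the model, and for all but TMEM45A without pregnant cows 20 and 21.

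Among all genes, the closest pattern to RARRES1 belonged to ENSBTAG00000019627, for which the files give no symbol. It ranged from 36.9 to 449 CPM with a median of 247 CPM. Its correlation with RARRES1 was 0.88 (Pearson, status means removed, n = 23) and 0.92 by Spearman's rho. Within pregnant cows it was 0.87 and within non-pregnant cows 0.98. It held at 0.86 without the 6 libraries that stand apart and at 0.84 without pregnant cows 23 and 21. Its slope on RARRES1 was 0.82 (standard error 0.10, adjusted p = 0.000297, edgeR), above those of TMEM45A, PPIC, EBF4 and GLB1L. ENSBTAG00000011986 came next, with r = 0.86 over 23 cows and 0.66 without the 6 libraries. At the other end ENSBTAG00000017124 had r = -0.83, and -0.70 without the 6 libraries, and ENSBTAG00000003097 had r = -0.81 and -0.58. These 4 were the extremes of 14851 genes over the same cows, so their correlations describe these libraries.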

How the data were processed

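Endometrial biopsies of 23 cows were sequenced with 1 library each (per the labels, TruSeq stranded total RNA). The submitters' processing notes name STAR, HTSeq and the UMD3.1 genome. The values deposited by the authors are HTSeq counts for each Ensembl gene, without normalization. Neither the tool versions nor the annotation release nor the strand setting is given in the sources used here. Lines of HTSeq for reads outside genes or ambiguous (at most 0.0094%) were left out of library sizes. The 121 within-group pairs of libraries all differed beyond sampling noise (chi-square of at least 32.4 for each degree of freedom). Status, parity and days came from the labels. All 23 cows were used, since the sources do not tie the cows used in the paper to the libraries.

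Counts were analysed in R 4.3.3 with edgeR 4.0.16 (default filter, 14852 genes; TMM; quasi-likelihood test; Benjamini-Hochberg adjusted p of 0.05 over all genes) and DESeq2 1.42.0 as an alternative. Standard errors are the log2 fold change over the root of F. Log2 CPM used a prior count of 2. Correlations with days and library measures used 1e+05 permutations, two-sided. The slope fits left RARRES1 out of the genes tested. Symbols of the 50 genes came from the paper's list of identifiers. Named genes were RARRES1, the 6 most and 6 least alike of the list (1 of the latter is not reported here), those called on the slope and the 2 most and least alike overall. The scripts were tested on simulated data. RARRES1, the lists and the tests were chosen with earlier results of these data known. Lists of retinoid, latexin, tubulin, cell type and cycle genes, written by symbol, could not be matched to identifiers and were not analysed here. p-values of the fits and permutation tests measure the spread between cows, and with 1 library per cow differences between libraries enter them too. The binomial test of neighbouring pairs measures counting error only.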

Additional observations from a re-analysis of the deposited data

How the results depend on the processing

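The log2 fold change of RARRES1 between pregnant and non-pregnant cows stayed above 0 in every alternative run, from 0.39 to 1.04. The parity effect ranged from -0.22 to 0.022 with each cow left out, above 0 only without non-pregnant cow 4 or pregnant cow 21, and the slope on days was -0.0201 without the 6 libraries that stand apart. None of the parity, days and interaction fits called RARRES1. The number of the 49 genes called on the slope, 4 in the fit reported, was 12 with DESeq2's Wald test, 10 without the 4 libraries apart, 2 without pregnant cows 20 and 21, 3 without pregnant cows 21 and 23, and 1 with parity and days added. It was 0 without these 6 libraries, with the share of reads outside genes or with the counts in genes added, and 2 to 14 with each cow left out. Over all genes, 373 were called on the slope. This count was 1215 with DESeq2, 794 with no filter on low counts, 1678 without the 4 libraries, 158 without pregnant cows 20 and 21, 2 without all 6, 181 with parity and days added, 10 with either library measure added, 88 without pregnant cows 21 and 23 and 114 to 1137 with each cow left out. The cause of these shifts was not tested. Without pregnant cows 21 and 23, a set chosen after the data were seen, the slope of RNF19A turned to 0.15. The alternatives for the symbol lists were not run, since no identifier could be matched. No paired analysis was possible because the groups share no replicate numbers. With 23 cows, 1 biopsy each and an SD of 0.95 (log2) within groups (0.48 without the 6 libraries), small effects on RARRES1 are not detectable.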
